A study of Rattus norvegicus with 2 samples.

Results

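The mitochondrial ribosomal proteins are the proteins that, together with RNA encoded in the mitochondrial genome, build the ribosome inside the mitochondrion. Their genes were taken from the arrays as every rat probe whose gene name begins with Mrpl or Mrps followed by a digit. This gave 70 genes, measured by 81 probes on 153 spots, among 18410 named genes on the array. Of the 70 genes, 69 were well above background on both arrays, and 15275 named genes in all passed that filter. The nucleus tractus solitarius (NTS), the part of the dorsal medulla that receives signals from baroreceptors, chemoreceptors and other visceral sensors, was dissected from Wistar Kyoto (WKY) rats aged 9 weeks. WKY is the inbred strain with normal blood pressure that usually serves as the control of the spontaneously hypertensive rat. RNA of 5 male rats made 1 pool and RNA of 5 female rats made the other, and 1 single-colour array of 60-base probes was used for each. The labels name no treatment, the groups differ by sex, and the comparison asks which genes differ between the sexes in this nucleus.

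Mitochondrial ribosomes translate a small set of messenger RNAs from the mitochondrial genome, all of which encode core subunits of the respiratory chain and of ATP synthase. Their ribosomal proteins are encoded in the nucleus, made in the cytosol and imported. Many descend from proteins of bacterial ribosomes, while others have no bacterial counterpart and surround a ribosomal RNA that is shorter than that of bacteria. The small subunit binds the messenger RNA and reads its codons, and the large subunit joins the amino acids and passes the chain to the inner membrane. Neurons depend heavily on the respiratory chain that these ribosomes supply, and inherited defects of several of the proteins cause respiratory chain deficiency.

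The level of a gene is its processed signal, a fluorescence intensity without unit, on each array. A difference is the log2 signal relative to the 75th percentile of that array in the female pool minus the same in the male pool, so positive values are higher in the female pool. The 75th percentile was 3441 for the male and 3380 for the female pool, so that a gene with equal signals has a difference slightly above 0. With 1 array for each sex there is no replicate check and no test of any difference. The only error available is that between spots of the same probe: its SD was 0.27 for probes over 64-fold below the 75th percentile, 0.15 from 16 to 64-fold below, 0.089 from 4 to 16-fold below and 0.069 for brighter probes. This SD covers the array surface and leaves out the variation between rats, pools and labellings. Well above background were 85.5% of the male and 87.9% of the female rat spots, and 0 were saturated.

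The tissue label was checked on marker genes of the NTS and dorsal hindbrain. Th, the first enzyme of catecholamine synthesis, had a signal of 48006 in the male pool and 48018 in the female pool. Dbh, which makes noradrenaline, had 34745 and 32900, and 7 of 7 genes of that list on the array were measured. Prlh, a peptide gene of noradrenergic neurons there, was the widest of the list with 14828 and 22425, a difference of 0.62 or 9.00 repeated-spot SDs. Lmx1b, Phox2a and Isl1 were dim, over 16-fold below the 75th percentile, and Lmx1b was at 0.23 or 1.54 SDs. Markers of other cells differed between the pools: 6 of 6 red cell genes and 8 of 8 meningeal genes were higher in the male pool, with median differences of -0.53 and -0.40, and 8 of 8 endothelial genes were higher in the female pool (median 0.19). The summed signal was 371731 and 294989 for the red cell list, 48645 and 29193 for the meningeal list and 15478 and 17797 for the endothelial list, male and female in turn. On the male side were also 7 of 8 choroid plexus genes (median -0.22), 6 of 8 microglial genes (-0.19) and 6 of 8 astrocyte genes (-0.097), and on the female side 6 of 8 oligodendrocyte genes (0.19). The neuronal list had a median of 0.0031 over 9 genes. In pooled tissue, a gene with fewer cells expressing it and a gene with less RNA per cell cannot be told apart, and the part of these cell types in the values below was not tested.

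The probes show which sequence each value was read from. Of the 81 member probes, 13 map across an intron on the rn4 build, so that they match spliced messenger RNA and not the genome in 1 block. The whole probes given here are of this kind and belong to members whose values are described further on. For Mrpl38 and Mrpl43, the members that differed most in each direction, the first 30 bases of the probe are given. Sequences are from the array files, 5′ to 3′ in lower case.
Mrps9 (chr9:42085479-42092439, plus strand): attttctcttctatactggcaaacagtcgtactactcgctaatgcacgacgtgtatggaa
Mrps18b (chr20:2987325-2987478, plus strand): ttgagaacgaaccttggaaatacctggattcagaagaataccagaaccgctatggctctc
Mrps18c (chr14:10096588-10096731, minus strand): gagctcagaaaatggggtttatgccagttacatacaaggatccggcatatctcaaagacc
Mrps23 (chr10:76501513-76506765, plus strand): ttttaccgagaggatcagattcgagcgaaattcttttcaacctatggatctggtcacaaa
Mrpl3 (chr8:110138311-110140337, plus strand): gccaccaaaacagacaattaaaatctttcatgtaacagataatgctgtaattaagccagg
Mrps36 (chr2:31531272-31532310, minus strand): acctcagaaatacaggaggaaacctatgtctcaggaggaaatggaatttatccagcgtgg
Mrpl38 (probe at chr10:106238769-106238828, minus strand): tgagagggcacagctggaagctcacatctc
Mrpl43 (probe at chr1:250072915-250072974, minus strand): agttcgtggaacgcgaagtgacggacttcg

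The mitochondrial ribosomal protein genes had close to the same level in both pools. The median difference was 0.0011 over 69 genes, with the middle 50% of genes between -0.050 and 0.047 and the whole set between -0.34 and 0.32. Over all 15275 genes the median was -0.014. Of the members, 36 of 69 were higher in the female pool, against 45.7% of all genes. The split depends on the scaling: with both arrays set to the same median, 48 of 69 members and 56.3% of all genes were higher in the female pool. With scaling by the spike-in control spots, which raised the median of all genes to 0.66, it was 69 of 69 members against 98.9% of all genes. The member median minus the all-gene median was 0.015 under each of these scalings.

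**Figure D1:**
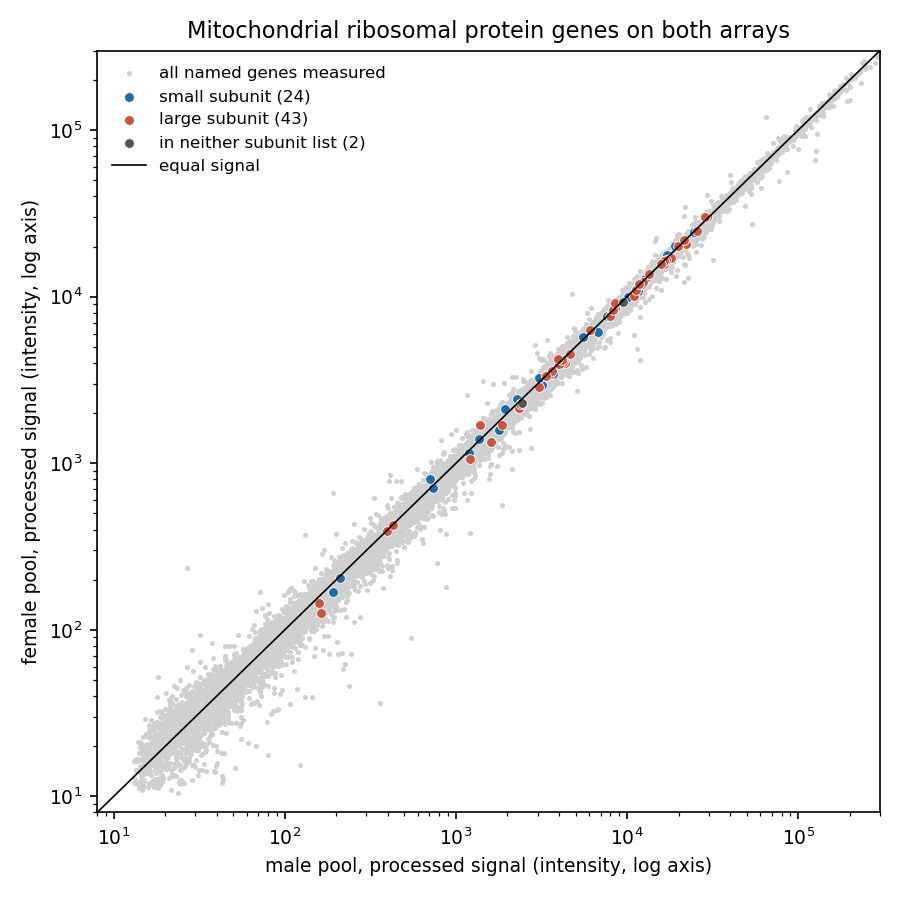
Processed signal of each named gene in the male pool (x axis) and the female pool (y axis), both on log axes and without unit, with the 24 small subunit genes in blue, the 43 large subunit genes in red, the 2 members in neither list in dark grey and all other measured genes in light grey. The members lie along the line of equal signal from 158.8 to 29404 in the male pool.

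Few members differed between the pools by 25% or by more than 2 SDs of a single spot. Mrpl38 alone was higher by 25% or more in the female pool (1 of 69, against 3.9% of all genes), and Mrpl43 alone was that much higher in the male pool (1 of 69, against 5.44%). At 1.5-fold the count was 0 in each direction, against 0.903% and 1.55% of all genes, and at 2-fold it was again 0, against 0.111% and 0.412%. A difference under 0.1 in either direction was seen for 51 of 69 members, against 52.8% of all genes. A difference above 1 repeated-spot SD was seen for 27 of 69, against 48.8%, and above 2 SDs for 7 of 69, against 19.9%. These 7 were Mrpl38, Mrps2 and Mrps9, higher in the female pool, and Mrpl43, Mrpl15, Mrpl3 and Mrps18b, higher in the male pool. The counts use the SD of a single spot for every gene, which is too wide where a value is the mean of several spots. Mrps23, at -0.080 with a standard error of 0.0095 over 10 spots, is therefore counted as within 2 SDs. Mrps18b is a single spot in 1 of 4 bands of array rows with an excess of spots brighter on the male array, and has no value without those bands. The same holds for Mrpl1, Mrpl16, Mrpl18, Mrpl21, Mrpl34, Mrps21l and Mrps30, and the other 61 members had a median of 0.0029 without the bands. The members closest under 25% were Mrps2 at 1.17-fold and Mrpl15 at 1.16-fold.

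Most members fell in the brightest class of probes: 61 of 69 were less than 4-fold below the 75th percentile, against 47.8% of all genes, and bright probes have smaller errors. Within this brightest class the SD across genes was 0.087 for the 61 members, 0.14 for 7299 genes of all kinds, 0.060 for 78 cytosolic ribosomal protein genes and 0.091 for 72 subunits of oxidative phosphorylation. Within the class 47 of 61 members differed by under 0.1, against 66.2% of all its genes, and 5 of 61 by more than 2 SDs, against 20.9%. A difference of 25% was reached by 1 of 61 members and by 3.1% of the genes of the class.

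**Figure D2:**
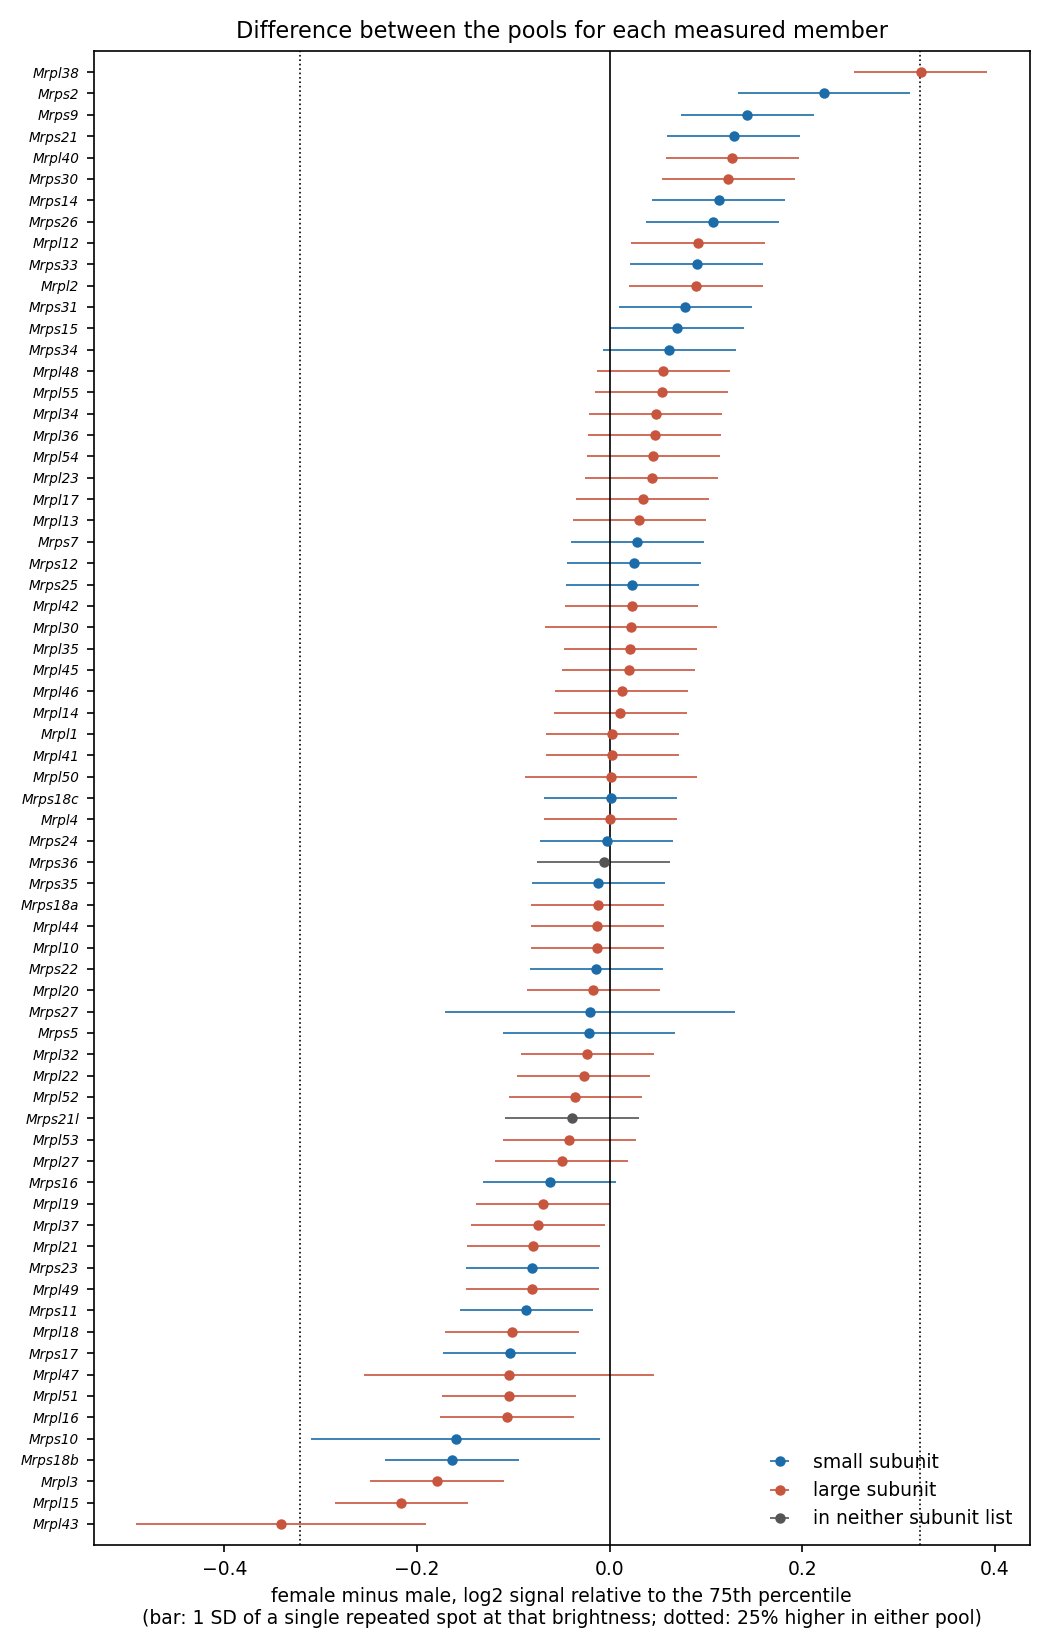
Difference between the pools (x axis, log2, female minus male) for each of the 69 measured members (y axis, ordered), with small subunit genes in blue, large subunit genes in red and the 2 members in neither list in grey. Bars show 1 SD of a single repeated spot at the brightness of the gene, and dotted lines mark 25% higher in either pool, which Mrpl38 passed towards the female pool and Mrpl43 towards the male pool.

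In the small subunit, 24 of 25 genes were measured, 13 were higher in the female pool, and the median difference was 0.012. Mrps2, whose protein sits between the head and the body of the subunit, had a signal of 707 in the male pool and 810 in the female pool, a difference of 0.22 or 2.49 repeated-spot SDs. Mrps9, a protein of the head, had 1942 and 2106, a difference of 0.14 or 2.06 SDs. These were the only small subunit genes beyond 2 SDs towards the female pool.
The other small subunit genes among the 10 members highest towards the female pool stayed within 2 SDs. Mrps21, read by 2 probes, differed by 0.13. Mrps14, another protein of the head, had signals of 2274 and 2416 (0.11). Mrps26, which has no bacterial counterpart, had 19045 and 20146 (0.11), and Mrps33, also without one, had 17061 and 17842 (0.090). None of these genes was 25% higher, and their order lies within the error of single spots.

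Towards the male pool, Mrps18b had 1794 in the male and 1573 in the female pool, a difference of -0.16 or 2.37 SDs, from a spot in those bands. Mrps10, in the head, had 192 and 169, and its difference of -0.16 came to 1.06 SDs because the probe is dim. Mrps17, in the body, had 6764 and 6182 (-0.10), but -0.0049 with normexp correction. Mrps11, on the platform that holds the messenger RNA, had 3714 and 3436 (-0.086). Mrps12, whose bacterial counterpart carries streptomycin resistance mutations, had 7649 and 7646 (0.025), and Mrps7 had 12718 and 12743 (0.029). Mrps15 (0.070), Mrps31 (0.078), Mrps34 (0.062), Mrps25 (0.023), Mrps24 (-0.0031), Mrps22 (-0.014) and Mrps27, a protein with pentatricopeptide repeats (-0.020), all lay 1.13 SDs or less from 0. Mrps28 was the only member not well above background on either array, with signals of 7.47 and 6.77, and has no difference here.

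In the large subunit, 43 genes were measured, 23 were higher in the female pool, and the median difference was 0.0014. Mrpl38 had a signal of 1387 in the male pool and 1704 in the female pool, 25.1% higher or 0.32 on the log2 scale, which is 4.67 repeated-spot SDs and the most of any member. Mrpl38 is a protein without bacterial counterpart in the central protuberance, the part of the large subunit that faces the head of the small one. Its value rests on a single spot of a single probe. It was at 25% or more in each alternative processing except normexp background correction, where it was 0.28.
The rest of the central protuberance did not share this difference. Over its 7 genes the median was 0.012, and 4 were higher in the female pool. Mrpl40 had differences of 0.11 and 0.15 by its 2 probes, Mrpl48 had 29404 and 30021 (0.056), and Mrpl46 had 4006 and 3969 (0.012). Mrpl52 (-0.036), Mrpl27 (-0.050) and Mrpl18 (-0.10) were on the male side, Mrpl18 with 10980 and 10053.

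Mrpl43, another protein without bacterial counterpart, had 161.9 in the male pool and 125.6 in the female pool, 1.27-fold or -0.34 on the log2 scale. Its probe is dim, and the difference amounts to 2.27 SDs at its brightness, which is less than that of Mrpl15. The probe also matched no current symbol of the RefSeq table, so the value stands for the array's own gene name. Under scaling by the median, quantile normalization or normexp correction Mrpl43 was less than 25% higher in the male pool, and with spike-in scaling its difference was 0.33 towards the female pool. Mrpl15, one of the bacterial-type proteins within the subunit core, had 1595 and 1349, a difference of -0.22 or 3.13 SDs. Mrpl3, in which inherited mutations cause cardiomyopathy, had 1215 and 1054 (-0.18, 2.59 SDs). These genes and Mrps18b were the members beyond 2 SDs towards the male pool, and each was read by a single spot.

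The peptidyl transferase region and the core held values on both sides of 0. Mrpl2 differed by 0.13 and 0.045 by its probes, and Mrpl16, which contacts transfer RNA, had 2345 and 2139 (-0.11, and -0.18 with normexp correction). Mrpl4 had 3649 and 3586 (0.00066), Mrpl14 had 16466 and 16297 (0.011), and Mrpl19 had 3052 and 2858 (-0.069). Mrpl20 (-0.017), Mrpl21 (-0.079), Mrpl34 (0.048) and Mrpl36 (0.047) are further bacterial-type proteins, and all lay 1.14 SDs or less from 0.
The list of stalk proteins had a median of 0.0029 over 5 genes. It joins the stalk that recruits translation factors with Mrpl1, which forms a separate stalk and whose own value is this median. Mrpl12, the stalk protein that also binds the mitochondrial RNA polymerase, had 28747 and 30092 (0.092, 1.33 SDs). Mrpl1 had 4625 and 4552 (0.0029), and Mrpl54 (0.045), Mrpl10 (-0.013) and Mrpl53 (-0.042) were near it.
Around the exit of the peptide tunnel the median was 0.020 over 5 genes. Mrpl45, which anchors the ribosome to the inner membrane, had 12322 and 12270 (0.020), and Mrpl23 had 8238 and 8341 (0.044). Mrpl17 was at 0.034, Mrpl22 at -0.027 and Mrpl47, a dim probe with 158.8 and 145.1, at -0.10, or 0.69 SDs.

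Other large subunit proteins completed the set, and those named here, except Mrpl55, are listed as having no bacterial counterpart. Mrps30, a large subunit protein in spite of its name, had 8559 in the male and 9157 in the female pool (0.12, 1.78 SDs). Mrpl51 had 1858 and 1698 (-0.10, 1.51 SDs), and Mrpl37, which pairs with Mrps30 in the ribosome, had 22150 and 20664 (-0.074). Mrpl49 was at -0.080, Mrpl44, which carries a ribonuclease III-like fold, at -0.013, Mrpl55 at 0.054, Mrpl42 at 0.023 and Mrpl41 and Mrpl50 each within 0.003 of 0. Grouped by origin, the 38 proteins listed with a bacterial counterpart had a median of 0.00088, with 20 higher in the female pool. The 26 listed as specific to mitochondria had 0.0076, with 15 higher in the female pool. Mrps18a (-0.013), Mrps18b (-0.16), Mrpl55, Mrps21l and Mrps36 were in neither of these lists, although the S18 family has a bacterial counterpart. For 11 of 12 genes in which inherited mutations cause respiratory chain deficiency and that were measured, the median was 0.023 and 6 were higher in the female pool, Mrps2 (0.22) and Mrpl3 (-0.18) being the extremes.

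The S18 family has several copies in mammals. Mrps18b and Mrps18c belong to the small subunit and Mrps18a to the large one. Their differences were -0.16 for Mrps18b, 0.0011 for Mrps18c and -0.013 for Mrps18a (11282 and 10986). The Mrps18c and Mrps18b probes printed above do not resemble each other. Whether either probe also binds the transcript of the other gene was not examined.
The members in neither subunit list were Mrps21l and Mrps36. Mrps21l, a gene model like Mrps21 on chromosome 18 of rn4, had 2420 and 2314 (-0.039), while Mrps21 itself was at 0.19 and 0.070 by its probes. Mrps36 now carries the symbol Kgd4, and its product is counted as a subunit of the 2-oxoglutarate dehydrogenase complex of the citric acid cycle. Its signals were 9519 and 9309 (-0.0064).

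The differences with the most spots behind them are those of the 8 members with a probe spotted 10 times. Mrps23, a small subunit protein, had signals of 3167 in the male pool and 2943 in the female pool, and the difference was -0.080 ± 0.030 (SD over 10 spots), with 0 of 10 spots higher in the female pool. Its spots ranged from -0.12 to -0.032, so the spots of this probe lay on 1 side of 0 although the difference is only 1.06-fold. Mrps16, also of the small subunit, had -0.071 ± 0.054 (SD over 10 spots), with 1 of 10 spots higher in the female pool, and a second probe at another position gave -0.054.
Mrpl53 had -0.042 ± 0.039 with 1 of 10 spots higher in the female pool. Mrpl32, which is matured by the m-AAA protease of the inner membrane before it joins the ribosome, had -0.023 ± 0.039 with 3 of 10. Mrps5 had -0.021 ± 0.047 with 4 of 10, and Mrps35 had -0.012 ± 0.058 with 5 of 10. Mrps18c had 0.0011 ± 0.031 with 6 of 10, and Mrpl13 had 0.031 ± 0.039 over the 8 spots left after outlier flags, with 6 of 8. All these errors are SDs over spots. In 7 of these 8 members at least 1 spot pointed each way, and Mrps23 was the exception. The sign of such small differences also rests on the scaling, since setting both arrays to the same median adds 0.035 to each.

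Members read by 2 different probes show how far probes of a gene agree on the difference between the pools. There were 11, and in 10 of them the differences of the probes lay less than 25% apart. The levels of some lay far apart. In the male pool the Mrpl10 probes read 1334 and 111649, those of Mrps21 14040 and 658, and those of Mrpl30 47.3 and 3851. The level given for such a gene lies between those of its probes. Both probes lay on the female side in Mrps21 (0.19 and 0.070), Mrpl40 (0.11 and 0.15), Mrpl2 (0.13 and 0.045) and Mrpl54 (0.020 and 0.071), and both on the male side in Mrps16. The probes lay on opposite sides of 0 in Mrpl17 (0.10 and -0.033), Mrpl30 (0.11 and -0.071), Mrpl41 (-0.017 and 0.023), Mrpl50 (-0.025 and 0.028), Mrpl10 (-0.043 and 0.017) and Mrpl35. The probes of Mrpl41 overlap, with a longest shared run of 31 bases, so they are not separate readings. Those of Mrpl54 also map to overlapping positions on rn4, chr7:9938902-9938960 and chr7:9938921-9938980.
Mrpl35 had the widest span, 1.33-fold. Its probe across an intron had signals of 3918 and 3385 (-0.19), and its probe further 3′ had 2891 and 3326 (0.23). The first of these is a single spot in the bands, and without them Mrpl35 is at 0.23. For 51 of 69 members the value rests on 1 probe and 1 spot, with no such comparison.

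**Figure D3:**
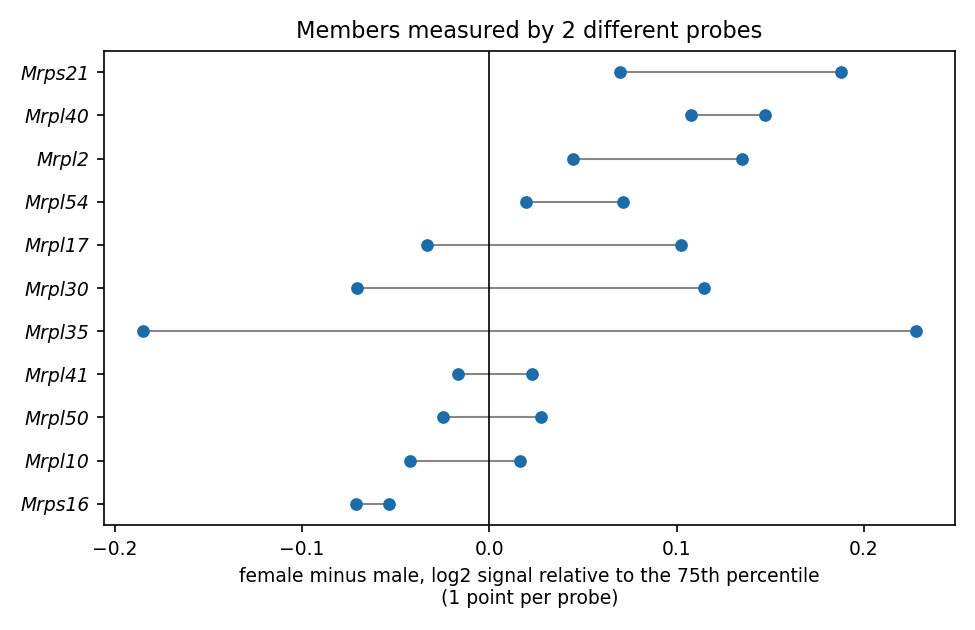
Difference between the pools (x axis, log2, female minus male) for each probe of the 11 members read by 2 probes (y axis), with a line joining the probes of a gene. The probes lie on the same side of 0 in Mrps21, Mrpl40, Mrpl2, Mrpl54 and Mrps16, and the line is longest for Mrpl35, from -0.19 to 0.23.

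Some mitochondrial ribosomal proteins were outside the naming rule through spelling. Probes named mrpl9 and mrpl24, each on 10 spots, were at 0.016 (14102 and 14007) and -0.0013 (3324 and 3262). The probe named mrpl11, for a protein at the base of the stalk, was at -0.093 (15468 and 14243). A list of 7 further ribosomal components under other names had a median of 0.016 with 4 higher in the female pool. Ptcd3, the small subunit protein with pentatricopeptide repeats, had the widest difference of the list, with 11851 in the male pool and 8660 in the female pool, 1.34-fold or -0.43. This single-spot value was larger than that of any member, remained on the male side in each setting but spike-in scaling, and reached 6.17 SDs at its brightness. Ict1, a ribosome-bound peptidyl-tRNA hydrolase of the large subunit, had 26544 and 23622 (-0.14).

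The genes that serve the mitochondrial ribosome were given in the same way. Of 13 translation factors 9 were higher in the female pool (median 0.084), against 45.7% of all genes. Mtif3, the initiation factor 3, had 1636 and 1815 (0.18). Oxa1l, the insertase that receives the nascent chain, was at 0.19, but its brighter probe alone gave -0.030.
Of 21 genes that serve the charging of mitochondrial transfer RNAs, 6 were higher in the female pool (median -0.029). Most are aminoacyl-tRNA synthetases, but Gatb, Gatc and Qrsl1 are not, and Gars and Kars also serve the cytosol. Ears2, the synthetase for glutamate, was at -0.18 with its 3 probes but at 0.055 without the bands. Of 24 ribosome assembly factors 10 were higher in the female pool (median -0.0057), and Rpusd3, a pseudouridine synthase-like protein, had 975 and 776 (-0.30). Ngrn, another assembly factor, had 5094 and 4513 (-0.15), from a single spot in the bands. Of 12 regulators of mitochondrial gene expression 2 were higher in the female pool (median -0.056). The coactivator genes Ppargc1a (293 and 253) and Ppargc1b (1092 and 926) were at -0.19 and -0.21. In these 4 lists 0 genes were 25% higher in either pool, against 3.9% of all genes towards the female and 5.44% towards the male pool. Rpusd3 came closest at 1.23-fold, and the lists are short.

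The cytosolic ribosome and the respiratory chain are the nearest sets for comparison. The 73 measured subunits of oxidative phosphorylation had a median of 0.00033 with 37 higher in the female pool, and the 81 cytosolic ribosomal protein genes had -0.0099 with 36 higher in the female pool. Both medians lay close to that of the mitochondrial ribosomal genes, 0.0011. Ndufa4, a subunit of cytochrome c oxidase, had 40024 in the male and 53460 in the female pool (0.44), and Uqcrc1, a core subunit of complex III, had 25084 and 30021 (0.28). The retrogene-like copies Rpl10l (409 and 846, 1.07) and Rpl39l (15.2 and 29.1, 0.96) were the widest of the cytosolic set. Rpl39l is over 64-fold below the 75th percentile and was at 0.30 with normexp correction. The single spots of Rpl10l and Uqcrc1 lie in the bands. No member of the mitochondrial ribosomal set was as far from 0 as Ndufa4 or Rpl10l.

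**Figure D4:**
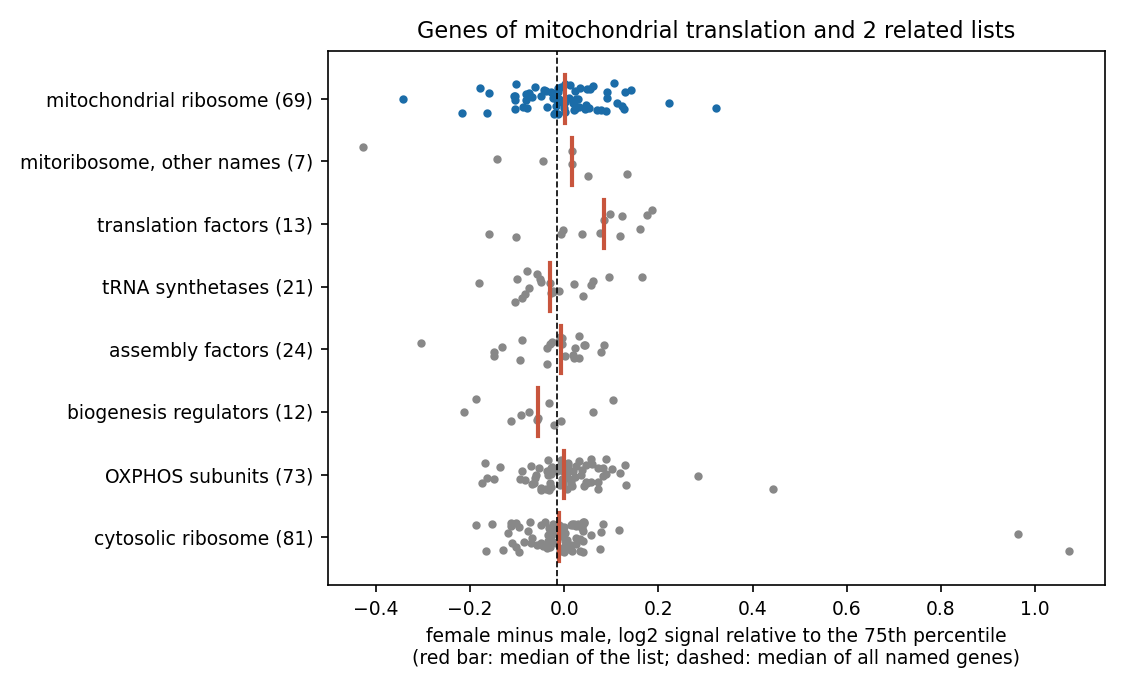
Difference between the pools (x axis, log2, female minus male) for each measured gene of the mitochondrial ribosomal set (blue) and of 7 related lists (grey), with the number of genes in parentheses. Red bars give each list's median, from -0.056 for the biogenesis regulators to 0.084 for the translation factors, and the dashed line the median of all named genes, -0.014.

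The members' promoters were described from RefSeq sequences on the GRCr8 build, 250 bases before to 50 after each start, which were found for 54 of 70 members. Letters of transcription factors known to serve nuclear genes of mitochondria were searched on both strands. Those of the first factor below were shortened by 1 base after a first search, which had found the longer form in fewer members. GCGCATGCG, the core of the letters bound by NRF1 (nuclear respiratory factor 1), occurred in 5 of 54 members (9.26%), namely Mrpl17, Mrpl22, Mrpl32, Mrpl44 and Mrps18b, against 1.70% of all 27457 promoters and 2.89% of those of measured genes. CCGGAAG, an ETS core such as GABP binds, occurred in 18 (33.3%), against 9.63% and 15.1%. AAGATGGC, the core of the YY1 letters, occurred in 14 (25.9%), against 3.62% and 4.90%. TATAAA occurred in 8 (14.8%), against 15.3% and 8.82%. In the 250 bases before the start alone, the shares were smaller for the ETS core, 10 members (18.5%) against 8.11% of all promoters and 13.1% of those of measured genes, and for YY1, 3 members (5.56%) against 1.81% and 2.10%.
The upstream stretches of Mrpl32 and Mrpl44 are shown because they hold the NRF1 letters on both strands, overlapping and in capitals, together with those of YY1 in Mrpl32 and of the TATA letters in Mrpl44, both on the other strand and also in capitals.
Mrpl32 (chr17:55260401-55260650, plus strand): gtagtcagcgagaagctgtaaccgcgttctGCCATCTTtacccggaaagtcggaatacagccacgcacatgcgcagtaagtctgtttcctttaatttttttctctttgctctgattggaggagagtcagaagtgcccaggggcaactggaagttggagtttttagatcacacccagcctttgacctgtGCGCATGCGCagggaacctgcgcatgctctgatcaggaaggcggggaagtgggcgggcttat
Mrpl44 (chr9:88554800-88555049, plus strand): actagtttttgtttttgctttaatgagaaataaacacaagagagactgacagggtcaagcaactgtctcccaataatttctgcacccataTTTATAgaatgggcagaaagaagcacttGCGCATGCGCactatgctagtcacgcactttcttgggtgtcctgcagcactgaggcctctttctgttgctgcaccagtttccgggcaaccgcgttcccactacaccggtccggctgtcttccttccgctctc
The median difference between the pools was -0.023 for the 5 members with NRF1 letters and 0.011 for the 49 without, -0.0060 for the 18 with the ETS core and 0.012 for the 36 without, and -0.0056 for the 14 with YY1 letters and 0.0069 for the 40 without. Higher in the female pool were 1 of 5 members with NRF1 letters and 30 of 49 without, 9 of 18 with the ETS core and 22 of 36 without, and 7 of 14 with YY1 letters and 24 of 40 without. None of these splits was tested.

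Members often shared a promoter region with a gene on the other strand. A divergent neighbour whose start lies within 300 bases was found for 14 of 54 members (25.9%), against 7.87% of all promoters and 9.60% of those of measured genes. In 1 of the 13 pairs both genes are members: Mrpl46 and Mrps11 start 234 bases apart on chromosome 1, in opposite directions. The 233 bases between them are shown, read towards Mrps11, with TATAAA in capitals.
Mrpl46-Mrps11 (chr1:142117031-142117263, plus strand): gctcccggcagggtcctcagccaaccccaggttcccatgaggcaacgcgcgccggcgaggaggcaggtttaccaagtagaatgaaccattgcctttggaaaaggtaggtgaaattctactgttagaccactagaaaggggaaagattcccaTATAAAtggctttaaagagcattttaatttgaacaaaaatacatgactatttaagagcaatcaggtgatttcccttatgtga
Mrpl46 was at 0.012 and Mrps11 at -0.086. In the 10 pairs with both genes measured, the 2 genes had differences of equal sign in 1, Mrpl47 (-0.10) with Ndufb5 (-0.068), the latter a subunit of complex I. The other pairs included Mrpl37 (-0.074) with Cyb5rl (0.089), Mrpl32 (-0.023) with Psma2, a proteasome subunit (0.025), Mrpl40 (0.13) with Hira, a histone chaperone (-0.068), and Mrpl30 (0.022) with Mitd1 (-0.19). Most of these values are within 1 or 2 spot SDs of 0. The signs also rest on the scaling: setting both arrays to the same median adds 0.035 to each difference. Mrpl32 is then at 0.011, on the same side as Psma2, and Mrps27 (-0.020) moves to the side of its neighbour Ptcd2 (0.056). Fau, the neighbour of Mrpl49 (-0.080), is counted as opposite at 0.071, the median difference of its probes. Its median signals of 151995 in the male and 136962 in the female pool point to the male side. No share over other divergent pairs was computed.

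On the rn4 build the member probes fall on 18 chromosomes, with 11 genes on chromosome 1, 10 on chromosome 10 and 7 each on chromosomes 4 and 9, and 0 on the X chromosome. Mrpl38 lies on chromosome 10 and Mrpl43 on chromosome 1. At least 1 pseudogene entry in the RefSeq table was found for 23 of 70 members, and Mrpl30 has 9. The share over other genes was not counted. Signal from processed copies could not be separated from that of such members. Mrpl38 and Mrpl43 have no such entry, Mrpl15 has 2 and Mrps18b has 1.

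The small difference of the set as a whole held across the ways of processing the arrays. The member median ranged from -0.0064, with the brightest probe of each gene, to 0.036, with scaling by the median, when spike-in scaling is set aside. It exceeded the median of all genes by 0.0014 to 0.024 over all settings. Mrpl38 was the member furthest towards the female pool and Mrpl43 the member furthest towards the male pool in the reported setting.

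**Figure D5:**
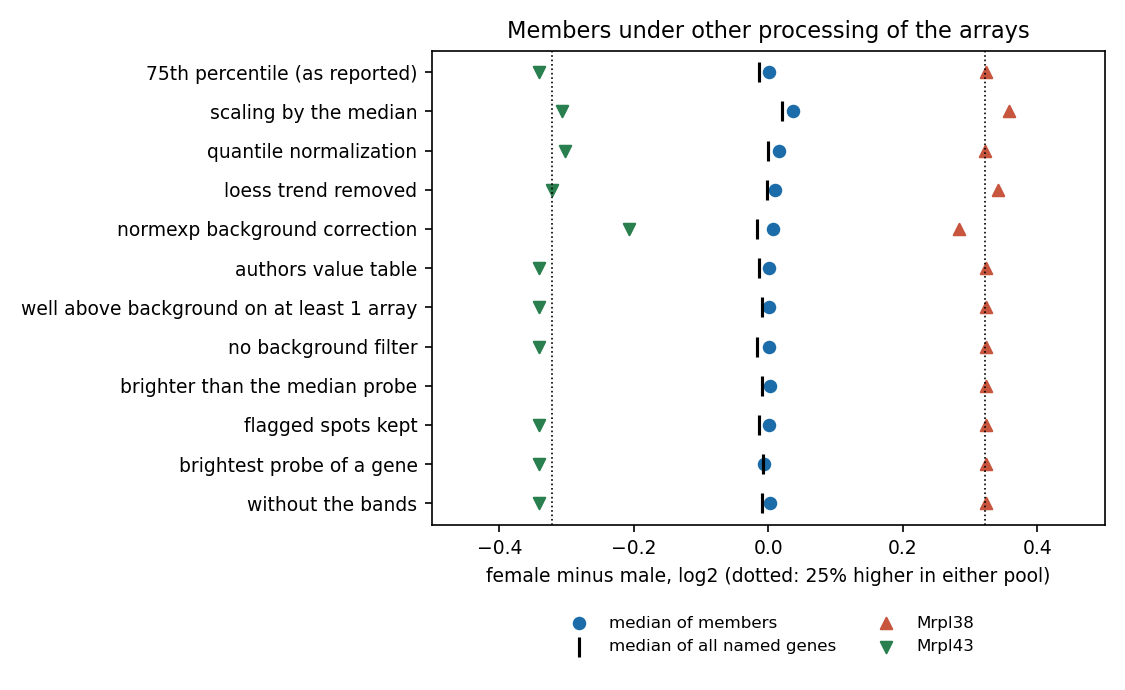
Difference between the pools (x axis, log2, female minus male) under the reported setting and 11 alternatives (y axis), for the median of the members (blue), the median of all named genes (black), Mrpl38 (red) and Mrpl43 (green), with dotted lines at 25% higher in either pool. The member median stays between -0.0064 and 0.036, Mrpl43 comes inside the line under several settings, and spike-in scaling is not drawn.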

How the data were processed

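The deposited intensity values came from single-colour Agilent arrays, which carried Cy3-labelled RNA of 1 male and 1 female pool on the same slide. Per the file headers, Agilent Feature Extraction 10.7.3.1 subtracted background and detrended the processed signal within each array, and positions are those of rn4. The submitters' processing notes name version 9.1. A value table deposited by the authors held the processed signal intensity times 1 factor per array, on a linear scale and not centred, with column medians of 28.0 (male) and 27.3 (female).

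Log2 processed signals were set relative to each array's 75th percentile over 42877 rat spots. Control spots and 430 spots with an outlier flag were left out (2 of them of members), the spots of each of 30367 probes were averaged, a probe counted when well above background on both arrays, and a gene was the median of its probes. Array gene names can be old: 78 of 81 member probes matched a current symbol of the GRCr8 RefSeq table by accession. The probes of Mrpl43, Mrps10 and Mrps28 did not. No test was possible with 1 array per sex. The spread came from probes with at least 5 spots left. The members and lists were chosen with earlier results of these data known. Named with values are the 10 members highest in each direction, those with repeated spots, disagreeing probes or signal near background, and the 2 most different genes of each related list (1 of them is not reported here), and other members are given more briefly; mrpl9, mrpl24, mrpl11, marker genes and promoter neighbours were chosen after their values were seen. Alternatives were other scalings, quantile normalization, a loess of span 0.3, normexp with offset 50, the value table, other filters, flagged spots kept, the brightest probe, 1.5-fold and 2-fold thresholds, and leaving out 4 of 20 bands of rows. The steps were tested on simulated data in Python 3.11.15 (pandas 2.3.3, statsmodels 0.14.6) and R 4.3.3 (limma 3.58.1).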

Additional observations from a re-analysis of the deposited data

How the results depend on the processing

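Scaling by the spike-in control spots moved every gene alike: the member median was 0.67, the small subunit median 0.68 and the large subunit median 0.67, 69 members were higher in the female pool, 69 were higher in it by 25% or more and 0 were higher so in the male, Mrpl43 was at 0.33 and Ptcd3 at 0.24. With normexp correction 0 members were 25% higher in the female pool, and 0 were in the male. At 1.5-fold and at 2-fold the counts were 0 and 0. The male count was also 0 with scaling by the median, quantile normalization and the filter for probes brighter than the median probe, which left Mrpl43 out. Besides spike-in scaling, the member median ranged from -0.0064 to 0.036 and the count of members higher in the female pool from 33 to 48, the highest of each with scaling by the median. Of 45 named genes, 43 kept their value within 1 spot SD with the brightest probe, 40 with normexp (not Mrps17, Mrpl16, Ptcd3, Rpl10l and Rpl39l) and 35 of 38 without the bands; Mrpl35, Oxa1l and Ears2 moved in the last, and Mrps18b, Mrpl16, Mrpl18, Mrps30, Ngrn, Uqcrc1 and Rpl10l had no value. No paired analysis was possible because each sex has 1 pooled array. Dim probes such as those of Mrpl43, Mrps10, Mrpl47 and Mrps28 limit what can be read for those genes, and differences within 1 spot SD have no order.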
